A study of Mus musculus with 2 samples.

Results

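Fatty acid oxidation was examined through 32 genes of the 32285 in the count tables, chosen by symbol from the pathway itself and not from their values. They cover fatty acid activation (4 genes), the carnitine shuttle (4), the acyl-CoA dehydrogenases (4), the later hydratase, dehydrogenase and thiolase steps (5), auxiliary enzymes for unsaturated chains (4), electron transfer (3), peroxisomal oxidation (4) and regulators with fuel choice genes (4). Fatty acids are first joined to coenzyme A, then carried into mitochondria as carnitine esters, and there shortened in repeated rounds of dehydrogenation, hydration, dehydrogenation and thiolysis. The electrons pass through electron transfer flavoprotein to the respiratory chain, and the acetyl-CoA enters the tricarboxylic acid (TCA) cycle. In tumours this route is known as a fuel of memory T cells and of some macrophage states, and it is an alternative to storing fatty acids as triglyceride, the reaction that DGAT1 completes.

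The samples were CD45+ cells from B16-F10 tumours, a transplantable mouse melanoma, grown either from DGAT1-knockout (KO) or from WT melanoma cells and collected on day 14. Per the labels, the genotype describes the implanted melanoma cells, and no edit of the host immune cells is given. Cells of 3 tumours per group, digested with collagenase D and DNase I and sorted as viable and CD45+, went into 1 library for each group, in which a cell cannot be traced to its tumour. With 1 library per group no test between KO and WT was possible, so values describe these libraries, and "higher" and "lower" are measured differences without a replicate check.

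The KO library held 202946827 unique molecular identifiers (UMIs, counted molecules) and the WT library 235652476, and 10932 KO and 9027 WT cells were kept, with medians of 10825 UMIs per KO and 14220 per WT cell. Of their barcodes 24 occurred in both libraries. Cells were assigned to 16 classes by marker genes, and the 10 classes that held 100 cells or more in both libraries were compared, from macrophage-gated cells (1731 KO and 3003 WT) and CD8 T-gated cells (2490 KO and 1910 WT) to neutrophil-gated cells (220 KO and 110 WT). In these 10 classes the markers used for gating were among the genes that led each gate, which the gating itself brings about. This is no separate check of the class names. The haemoglobin gene Hbb-bs was among the 10 that led the WT cDC2 gate. Melanoma-gated cells (173 KO and 687 WT) passed the CD45+ sort, and the gating markers Dct and Pmel led them in both libraries. A level in CPM is how many UMIs a gene had per 1000000 in its class and library. Ratios are KO over WT, with a 95% interval for counting error alone, and were taken where a member had 50 or more UMIs in a class, both libraries together. In such sums over cells, fewer cells with a transcript and less of it per cell cannot be told apart.

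Ucp2, Acsl4 and Ech1 are shown by the bases upstream of their start. They were picked together with Eci2 and Decr1 from the members described below. Decr1 had no promoter entry and that of Eci2 lay inside the annotated gene, so neither is shown. Gene positions throughout are on mm10. The sequences are from RefSeq on GRCm38.p6, read 5′ to 3′ on the strand of the gene and ended before the first base of the annotated gene. Ucp2 is taken from chr7:100493158-100493336 (plus), Acsl4 from chrX:142390536-142390735 (minus) and Ech1 from chr7:28825138-28825216 (plus). Capitals mark TCATGTG on either strand, the core of the M-box that the melanocyte factor MITF is known to bind.
Ucp2: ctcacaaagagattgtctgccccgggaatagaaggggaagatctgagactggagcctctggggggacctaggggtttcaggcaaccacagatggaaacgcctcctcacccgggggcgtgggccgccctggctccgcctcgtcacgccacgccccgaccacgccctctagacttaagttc
Acsl4: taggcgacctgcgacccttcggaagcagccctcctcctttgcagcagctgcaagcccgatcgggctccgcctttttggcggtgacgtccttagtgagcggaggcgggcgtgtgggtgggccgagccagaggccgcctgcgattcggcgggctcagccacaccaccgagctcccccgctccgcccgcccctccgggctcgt
Ech1: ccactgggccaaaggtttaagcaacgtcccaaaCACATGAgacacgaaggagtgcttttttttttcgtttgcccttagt

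Of the 32 members, 28 matched a promoter entry by symbol, with 29 start sites. Among windows of 200 bases before the start, TCATGTG was found in 2 of the 29 (6.90%), that of Ech1 among them, and in 2.57% of all 32851 windows. AGGTCA, the element that nuclear receptors such as the PPARs bind in pairs, was found in 3 of the 29 (10.3%), those of Acadvl, Cpt1a and Echs1, against 11.4% of all windows. The longer AAGGTCA was in 0 of the 29 and 3.18% of all windows, the direct repeat of AGGTCA with 1 base between in 0 and 0.0335%, and the E-box CACGTG in 0 and 5.26%. Both strands were searched, and AGGTCA lies inside the longer forms. A match is only a description of the letters, and these letters elsewhere in a gene were not searched.

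Read by class, the median ratio of the members lay slightly below WT in the large immune classes. In the dendritic cell classes this median was near WT. In macrophage-gated cells 23 of 30 members were below WT, while 51.4% of all 13298 genes measured there were, and the median log2 ratio was -0.25, with -0.012 over all genes. Among CD8 T-gated cells 23 of 30 were below WT (42.8% of all genes), with a median of -0.10 against 0.047 over all genes, and among monocyte-gated cells 22 of 29 were (46.6% of all genes), with a median of -0.13 against 0.033. In macrophage-gated cells 18 of the 30 had an interval below 1 and 4 an interval above 1. The summed level of the 32 genes there was 1643 CPM in KO and 1808 CPM in WT cells, a ratio of 0.909 (0.900 to 0.918). By role the ratio of sums there ran from 0.725 for the auxiliary enzymes and 0.820 for the acyl-CoA dehydrogenases to 1.07 for activation. By sums, mature dendritic cell-gated cells (0.896, 0.860 to 0.933) and cDC1-gated cells (0.921, 0.890 to 0.952) were as low as CD8 T-gated cells (0.921) and monocyte-gated cells (0.909). A sum weighs abundant genes most, and the lowest role in both dendritic cell classes was regulators and fuel choice, mostly Ucp2. Its ratio was 0.757 in mature dendritic cell-gated cells, with the other roles from 0.876 to 1.13. In cDC1-gated cells it was 0.795, with the other roles from 0.815 to 1.10. In cDC2-gated cells the interval held 1 (0.969, 0.937 to 1.002), and in melanoma-gated cells the sum was higher (1.11, 1.09 to 1.13).

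At most 3 members were past a 1.5-fold difference in each of the 3 large classes. Of the 30 measured in macrophage-gated cells 0 were 1.5-fold lower and 0 were 1.5-fold higher, where 6.29% and 7.15% of all genes were. In CD8 T-gated cells 1 was lower and 0 higher (7.16% and 3.28% of all genes). Monocyte-gated cells had 3 of 29 lower and 0 higher (6.08% and 4.88% of all genes). With at most 3 members past the fold in a class, nothing is read from these counts about the set as a whole.

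In the other classes but neutrophil-gated cells the member medians were also below those of all genes, though near 0 in the DC classes and in melanoma-gated cells (-0.048 against 0.0098). The median was -0.15 in NK-gated cells against 0.10 over all genes, -0.060 against 0.078 in non-classical monocyte-gated cells, -0.037 against 0.0997 in cDC2-gated cells, 0.011 against 0.090 in mature dendritic cell (DC)-gated cells and 0.026 against 0.078 in cDC1-gated cells. Members were below WT in 16 of 27 in NK-gated cells (38.3% of all genes), 16 of 24 in non-classical monocyte-gated cells (41.5%), 15 of 28 in cDC2-gated cells (39.0%), 12 of 25 in mature DC-gated cells (39.4%) and 12 of 27 in cDC1-gated cells (41.1%). The conventional DCs are named cDC1, which take up dead cells and prime CD8 T cells, and cDC2, which prime CD4 T cells. In neutrophil-gated cells, which hold little RNA, 4 members could be compared, 1 of them below WT (47.4% of all genes), 0 past 1.5-fold lower (10.4%) and 1, Acsl4, as much higher (12.4%), a difference that was under 1.5-fold under a stricter gate.

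**Figure D1:**
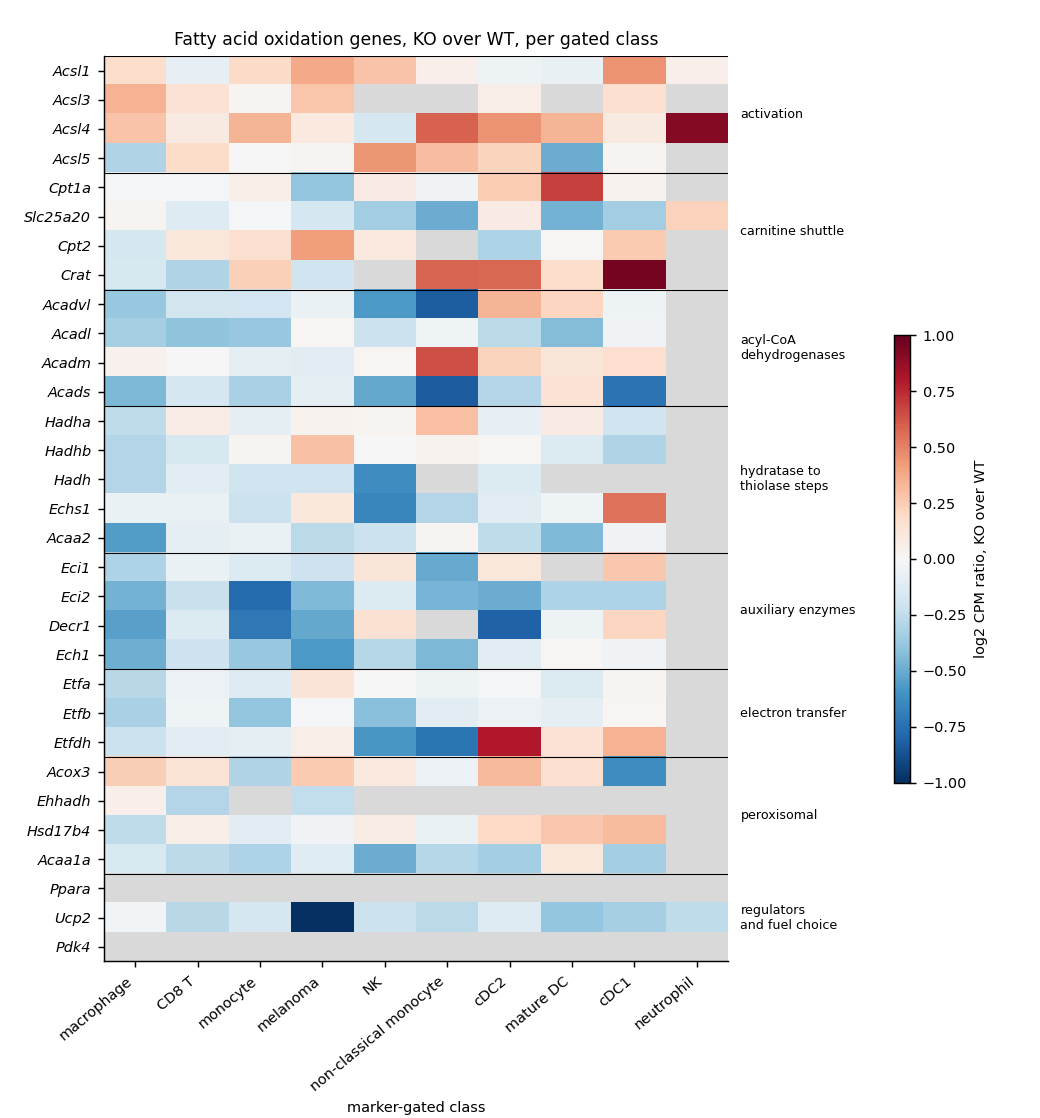
Log2 CPM ratio, KO over WT, of the members shown (rows, ordered by role) in 10 marker-gated classes (columns); red is higher and blue lower in the KO library, colours end at 1 and -1, and grey marks members under 50 UMIs. Blue prevails in the rows of Eci2 and Ucp2, red in that of Acsl4, and Etfdh is red in cDC2-gated cells (0.80) and blue in non-classical monocyte-gated cells (-0.73).

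Over all classes, 254 of the 320 pairs of a member and a class had at least 50 UMIs, and 157 of them (61.8%) were below WT. Over all genes the share below WT ran from 38.3% to 51.4% between the classes. A difference of 1.5-fold or more was seen in 20 pairs, 13 of them lower and 7 higher in KO cells, each with an interval that left out 1. That is 5.12% and 2.76% of the pairs, where between 3.09% and 10.4% of all genes in a class were as much lower and between 3.28% and 12.4% as much higher. The limit of 50 UMIs fell between Crat in non-classical monocyte-gated cells, with 37 KO and 13 WT UMIs and a log2 ratio of 0.58, and Acsl3 in NK-gated cells, with 33 KO and 16 WT UMIs and 0.11. Among the pairs just under the limit was Etfa in neutrophil-gated cells, with 20 KO and 26 WT UMIs, or 17.9 CPM in KO and 47.8 CPM in WT cells. Pairs of 1 class share their libraries and pairs of 1 gene share the gene, so the counts are not of independent values.

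Counted by role, the direction varied, though no role was tested against another. The acyl-CoA synthetases of the activation step were below WT in 7 of 35 pairs (median 0.16), and the auxiliary enzymes for unsaturated chains in 28 of 34 (median -0.30). Between them stood the dehydrogenases with 26 of 36 (-0.14), the hydratase to thiolase steps with 30 of 42 (-0.10), electron transfer with 19 of 27 (-0.059), peroxisomal oxidation with 17 of 30 (-0.060) and the carnitine shuttle with 16 of 35 (0.027). Regulators and fuel choice genes were below WT in 14 of 15, but Ucp2 alone made up 10 of these pairs, all below WT. Ppara and Pdk4 entered with 0 pairs, so this count mostly describes Ucp2 and not the role as a whole. With ratios centred on the median of all genes in each class, the activation median was 0.10 and the auxiliary median -0.34, while the carnitine shuttle turned to -0.021.

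**Figure D2:**
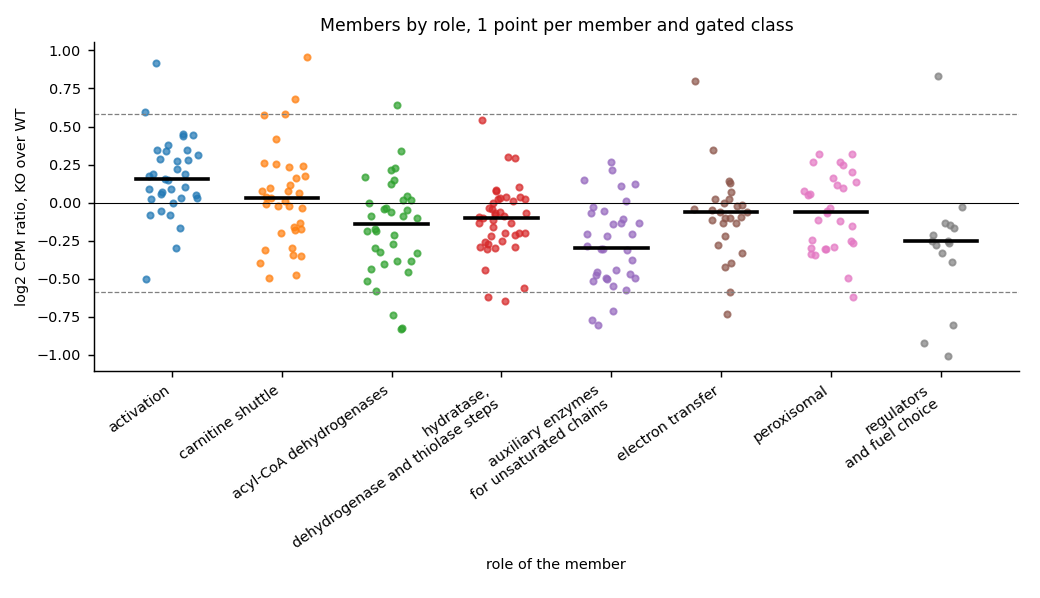
Each point is the log2 CPM ratio, KO over WT, of 1 member in 1 gated class, grouped by role, with bars at the median and dashed lines at a 1.5-fold difference. The activation points lie mostly above 0 (median 0.16) and the auxiliary points mostly below (median -0.30).

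Activation of fatty acids was the step with the higher values in the KO library. Acsl4 (ENSMUSG00000031278, chromosome X, 142317993 to 142390535, minus strand), a synthetase that prefers arachidonic and other polyunsaturated acids and is known to sensitise cells to ferroptosis, was above WT in 9 of 10 classes, and in 8 of 10 with each cell weighted alike. It stood at 103 CPM in KO and 85.1 CPM in WT macrophage-gated cells, a ratio of 1.22 (1.16 to 1.27). In monocyte-gated cells it was at 107 CPM in KO and 84.9 CPM in WT cells, a ratio of 1.26 (1.18 to 1.36). Non-classical monocyte-gated cells had 95.1 CPM in KO and 63.1 CPM in WT cells, and neutrophil-gated cells 97.4 CPM in KO and 51.5 CPM in WT cells, with 109 KO and 28 WT UMIs in neutrophil-gated cells. In CD8 T-gated cells the difference was small, 109 CPM in KO and 103 CPM in WT cells, and NK-gated cells were the exception with 100.2 CPM in KO and 112 CPM in WT cells.

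Acsl1, a synthetase induced in activated macrophages, was at 143 CPM in KO and 127 CPM in WT macrophage-gated cells (ratio 1.13, 1.09 to 1.17) and at 52.95 CPM in KO and 46.5 CPM in WT monocyte-gated cells. Its level followed the cell type far more than the library, with 175 CPM in KO and 169 CPM in WT neutrophil-gated cells at the top and 4.76 CPM in KO and 5.04 CPM in WT CD8 T-gated cells at the bottom. Acsl3, a synthetase of the endoplasmic reticulum and lipid droplets, was a melanoma gene here, at 103 CPM in KO and 85.3 CPM in WT melanoma-gated cells and at most 10.9 CPM in any immune class. Acsl5, a mitochondrial and reticulum synthetase, had no common direction. It was at 67.0 CPM in KO and 82.3 CPM in WT macrophage-gated cells (ratio 0.814, 0.774 to 0.855) but at 102 CPM in KO and 89.7 CPM in WT CD8 T-gated cells (1.14, 1.09 to 1.18).

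The carnitine shuttle was near equal in both libraries by its median, though its carrier gene was below WT in most classes. Cpt1a (chromosome 19, 3322334 to 3385733), the outer membrane transferase that sets the rate of entry, was at 50.2 CPM in KO and 50.95 CPM in WT macrophage-gated cells. It was at 26.4 CPM in KO and 26.5 CPM in WT CD8 T-gated cells, and at 45.9 CPM in KO and 43.97 CPM in WT monocyte-gated cells. The intervals of these ratios, 0.928 to 1.04, 0.923 to 1.07 and 0.945 to 1.15, all held 1. In mature DC-gated cells Cpt1a was at 24.8 CPM in KO and 15.4 CPM in WT cells (1.61, 1.12 to 2.34), the 1 of 25 members there past 1.5-fold higher, where 8.78% of all genes were, and 0 were as much lower (4.30% of all genes). It was under 1.5-fold under a stricter gate and with each cell weighted alike.

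The carrier gene Slc25a20, which exchanges acylcarnitine for carnitine, was below WT in 7 of 10 classes, with 4 intervals below 1 and 0 above. It was at 18.1 CPM in KO and 17.8 CPM in WT macrophage-gated cells. In mature DC-gated cells it was at 45.5 CPM in KO and 63.2 CPM in WT cells. Its lowest ratio was in non-classical monocyte-gated cells, with 28.3 CPM in KO and 39.8 CPM in WT cells. Cpt2, the inner transferase, ranged over 8 classes from a log2 ratio of -0.31 to 0.42, and Crat, the transferase of short chains, from -0.30 to 0.96. The highest Crat ratio was in cDC1-gated cells, at 11.6 CPM in KO and 5.96 CPM in WT cells, from 46 KO and 22 WT UMIs. Crat was the 1 of 27 members there past 1.5-fold higher, where 11.4% of all genes were, and it was under 1.5-fold with each cell weighted alike.

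**Figure D3:**
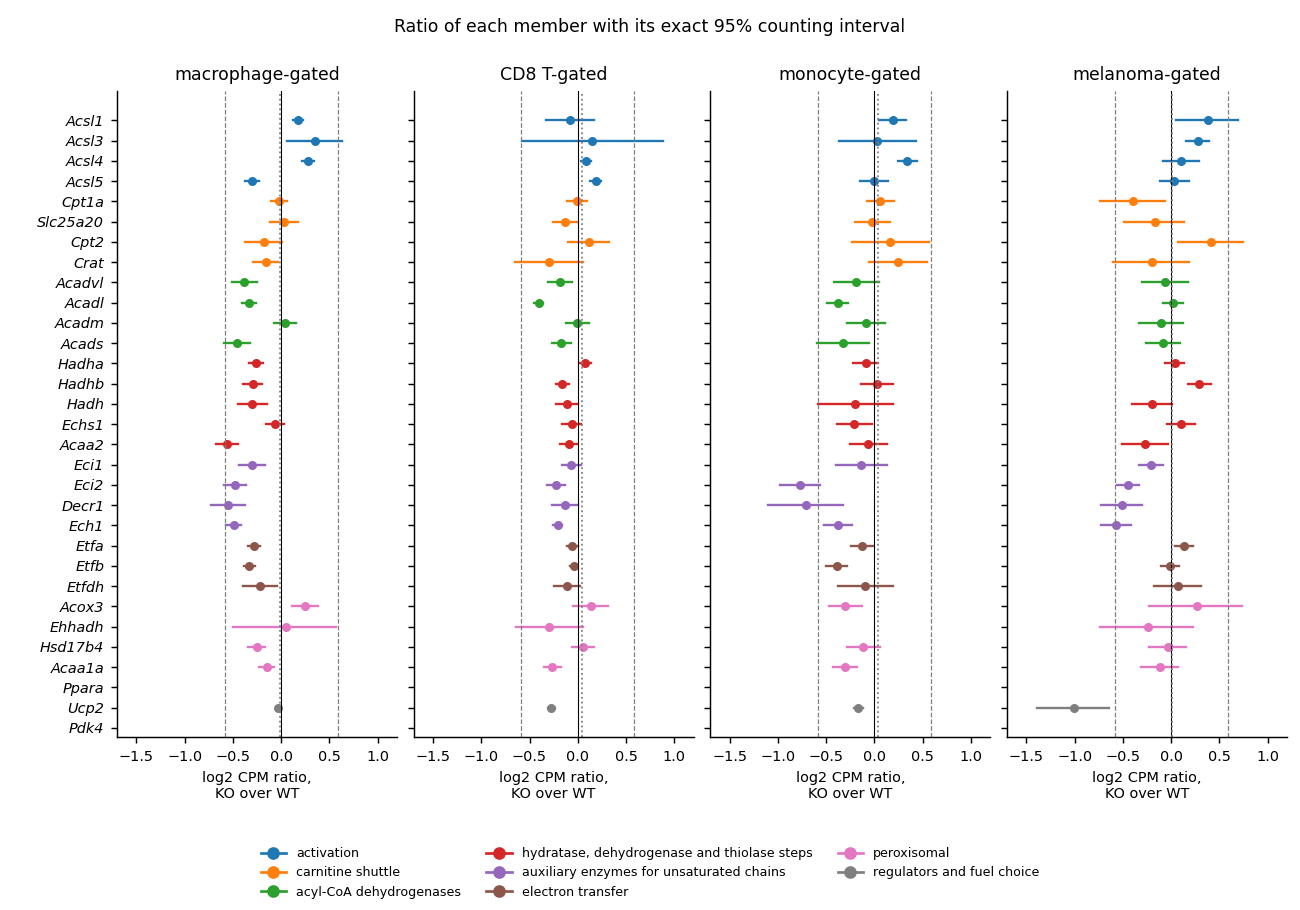
Log2 CPM ratio, KO over WT, of each member in 4 gated classes, with bars for the 95% counting interval, a dotted line at the median of all genes and dashed lines at a 1.5-fold difference. In macrophage-gated cells the activation genes Acsl1, Acsl3 and Acsl4 lie right of 0 and the auxiliary enzymes left of it, from -0.30 to -0.54.

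Among the acyl-CoA dehydrogenases, which take the first step of each round, the enzymes of long and short chains were lower in the KO library and that of medium chains was not. Acadl (chromosome 1, 66830839 to 66863277), the long-chain enzyme, was at 69.96 CPM in KO and 87.9 CPM in WT macrophage-gated cells (ratio 0.796, 0.758 to 0.835). It was at 134 CPM in KO and 177 CPM in WT CD8 T-gated cells (0.755, 0.732 to 0.778), and at 65.7 CPM in KO and 85.6 CPM in WT monocyte-gated cells (0.768, 0.712 to 0.828). Acadl was below WT in 8 of 9 classes, and the melanoma-gated cells, with 126 CPM in KO and 124 CPM in WT cells, were the exception. Thinned to 3000 UMIs per cell, 30.9% of KO CD8 T-gated cells (29.1 to 32.8) and 37.5% of WT cells (35.3 to 39.7) had an Acadl UMI, while 77.5% of KO and 82.2% of WT cells had before thinning, in which 48 KO and 59 WT cells were too shallow to enter.

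Acads, the short-chain enzyme, was at 18.9 CPM in KO and 25.8 CPM in WT macrophage-gated cells (0.731, 0.665 to 0.802) and was also below WT in 8 of 9 classes. Its lowest ratios were in non-classical monocyte-gated cells (8.42 CPM in KO and 14.99 CPM in WT cells) and in cDC1-gated cells (9.57 CPM in KO and 15.99 CPM in WT cells), from 29 to 59 UMIs per library. Acadvl, the very long-chain enzyme bound to the inner membrane, was at 20.02 CPM in KO and 26.1 CPM in WT macrophage-gated cells, and lowest in non-classical monocyte-gated cells with 11.7 CPM in KO and 20.7 CPM in WT cells (0.565, 0.359 to 0.892). Acadm, the medium-chain enzyme, was near equal in macrophage-gated cells (28.6 CPM in KO and 27.8 CPM in WT) and in CD8 T-gated cells (19.8 CPM in KO and 19.9 CPM in WT). It was higher in KO non-classical monocyte-gated cells, at 29.1 CPM against 18.6 CPM in WT cells (1.56, 1.06 to 2.35). In that class 2 of 24 members were past 1.5-fold higher and 3 as much lower, where 7.85% and 4.65% of all genes were. Centred on the median of all genes, both Acadm and Acsl4 were under 1.5-fold there, and Acsl4 was so too at no more than 5% mitochondrial UMIs and with each cell weighted alike, with a lowest log2 ratio of 0.34.

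The hydratase, dehydrogenase and thiolase steps were lower in KO macrophage-gated cells by modest amounts. Hadha and Hadhb encode the subunits of the trifunctional protein and lie head to head on chromosome 5 (30118304 to 30155162, minus strand, and 30155248 to 30184593, plus strand). Hadha was at 65.97 CPM in KO and 78.8 CPM in WT macrophage-gated cells, and Hadhb at 35.5 CPM in KO and 43.5 CPM in WT cells. The pair was not lower in every class. Hadha was at 79.7 CPM in KO and 75.7 CPM in WT CD8 T-gated cells, and at 53.3 CPM in KO and 56.7 CPM in WT monocyte-gated cells with an interval across 1 (0.860 to 1.03). In melanoma-gated cells Hadhb was at 97.9 CPM in KO and 79.95 CPM in WT cells.

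Acaa2, the mitochondrial thiolase that releases acetyl-CoA, had the lowest ratio of all members in macrophage-gated cells, at 25.9 CPM in KO and 38.3 CPM in WT cells (0.677, 0.626 to 0.733). It was below WT in 8 of 9 classes. Hadh, the dehydrogenase of shorter chains, was below WT in 6 of 6 classes, or 6 of 8 when 20 UMIs were enough, and Echs1, the short-chain hydratase, in 7 of 9. In NK-gated cells these were the 2 of 27 members past 1.5-fold lower, where 3.19% of all genes were and 0 members were as much higher (7.79% of all genes). Hadh stood at 14.7 CPM in KO and 22.7 CPM in WT NK-gated cells, and Echs1 at 18.6 CPM in KO and 29.2 CPM in WT cells, each from 49 to 77 UMIs per library, and Echs1 was under 1.5-fold with doublets kept. The median of all genes in NK-gated cells was itself shifted to 0.10, and the member median of -0.15 was -0.25 relative to it.

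The auxiliary enzymes, which reshape double bonds so that unsaturated chains can pass the cycle, had the lowest median ratio of the roles over all pairs, but not in every class. Eci2 (ENSMUSG00000021417, chromosome 13, 34977748 to 35027096, minus strand), an enoyl-CoA isomerase of mitochondria and peroxisomes, was below WT in 9 of 9 classes, in 7 of 8 with barcodes above the UMI threshold alone and in 4 of 5 with the subsets of a class weighted alike. In monocyte-gated cells it had 399 UMIs in the KO library and 391 in the WT library, or 16.4 CPM in KO and 28.0 CPM in WT cells, a ratio of 0.585 (0.508 to 0.675). It was at 26.04 CPM in KO and 36.2 CPM in WT macrophage-gated cells (0.720, 0.665 to 0.779), at 32.4 CPM in KO and 37.8 CPM in WT CD8 T-gated cells, and at 104 CPM in KO and 141 CPM in WT melanoma-gated cells (0.735, 0.680 to 0.794). Thinned to 3000 UMIs per cell, 4.46% of KO monocyte-gated cells (3.65 to 5.40) and 6.45% of WT cells (5.04 to 8.11) had an Eci2 UMI, and 13.8% of KO and 24.3% of WT cells had before thinning. Eci2 and the peroxisomal thiolase gene Acaa1a each have a close mouse paralog, Eci3 and Acaa1b, and the sources used here do not say how shared reads were counted.

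Decr1, the dienoyl-CoA reductase needed for polyunsaturated chains, was below WT in 6 of 8 classes. In monocyte-gated cells it was at 4.90 CPM in KO and 8.03 CPM in WT cells (0.610, 0.467 to 0.796). It was at 10.9 CPM in KO and 15.9 CPM in WT macrophage-gated cells, and at 10.9 CPM in KO and 18.99 CPM in WT cDC2-gated cells (0.572, 0.405 to 0.815). In cDC2-gated cells 1 of 28 members was past 1.5-fold lower (3.09% of all genes) and 1 as much higher (9.25% of all genes). The 3 erythroid markers were at 2.15 CPM in KO and 1274 CPM in WT cDC2-gated cells and the 4 monocyte markers at 1077 CPM in KO and 1727 CPM in WT cells, none of them at 0, and their part in the ratios of Decr1 and Etfdh was not tested. Ech1, a dienoyl-CoA isomerase, was at 60.99 CPM in KO and 85.8 CPM in WT macrophage-gated cells (0.711, 0.675 to 0.748), at 125 CPM in KO and 145 CPM in WT CD8 T-gated cells and at 39.7 CPM in KO and 51.6 CPM in WT monocyte-gated cells. Eci1, the other mitochondrial isomerase, was below WT in 5 of 8 classes. Summed over the 4 genes, the auxiliary enzymes were at 117 CPM in KO and 162 CPM in WT macrophage-gated cells (0.725, 0.698 to 0.752), and at 73.8 CPM in KO and 102 CPM in WT monocyte-gated cells (0.725, 0.676 to 0.778). In NK- (0.924), mature DC- (0.931), cDC1- (0.971) and neutrophil-gated cells (0.616) the interval of this ratio held 1. In CD8 T-gated cells their ratio of sums was 0.880, and that of the acyl-CoA dehydrogenases was lower at 0.802.

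The monocyte-gated cells that were not cycling, 99.1% of the KO and 97.2% of the WT class, had values close to those of the whole class. There Eci2 was at 15.97 CPM in KO and 27.5 CPM in WT cells. In the 22 KO and 31 WT cycling cells it was at 49.2 CPM in KO and 36.6 CPM in WT cells, from 16 KO and 30 WT UMIs. With cycling and other cells weighted alike, the log2 ratio of Eci2 was 0.022 in place of -0.77 and that of Decr1 -0.35 in place of -0.71, a weighting in which these few cycling cells count as much as all others.

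All 3 electron transfer genes were below WT in macrophage-, monocyte-, CD8 T- and non-classical monocyte-gated cells, and the direction varied in the other classes. The ratio of their sums was 0.811 (0.789 to 0.835) in macrophage-gated cells and 0.837 (0.794 to 0.882) in monocyte-gated cells. In CD8 T-gated and in non-classical monocyte-gated cells 1 of the 3 intervals lay below 1. Etfb (chromosome 7, 43444083 to 43457800), the beta subunit of electron transfer flavoprotein, was at 106 CPM in KO and 134 CPM in WT macrophage-gated cells (0.797, 0.766 to 0.829). It was at 66.7 CPM in KO and 87.6 CPM in WT monocyte-gated cells (0.762, 0.707 to 0.821). In CD8 T-gated cells it was close, with 227 CPM in KO and 233 CPM in WT cells. Etfb was below WT in 8 of 9 classes. Etfa, the alpha subunit, was at 86.6 CPM in KO and 105 CPM in WT macrophage-gated cells. Etfdh, the dehydrogenase that passes the electrons on to ubiquinone, went opposite ways in a pair of classes, at 15.6 CPM in KO and 8.98 CPM in WT cDC2-gated cells (1.74, 1.14 to 2.76) but at 12.8 CPM in KO and 21.2 CPM in WT non-classical monocyte-gated cells (0.603, 0.388 to 0.939). These ratios rest on 26 to 131 UMIs per library, and the difference in cDC2-gated cells was under 1.5-fold with each cell weighted alike, that in non-classical monocyte-gated cells under a stricter gate.

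Peroxisomal members, which begin the shortening of very long and branched chains, showed no common direction. Acaa1a, the peroxisomal thiolase, was below WT in 8 of 9 classes, at 58.8 CPM in KO and 65.3 CPM in WT macrophage-gated cells, 34.4 CPM in KO and 41.3 CPM in WT CD8 T-gated cells and 55.9 CPM in KO and 69.1 CPM in WT monocyte-gated cells. Acox3, an acyl-CoA oxidase of branched chains, was at 21.6 CPM in KO and 18.2 CPM in WT macrophage-gated cells (1.18, 1.08 to 1.3) but at 58.9 CPM in KO and 90.5 CPM in WT cDC1-gated cells (0.651, 0.548 to 0.772). With Acads it made the 2 of 27 members past 1.5-fold lower in cDC1-gated cells, where 4.64% of all genes were, and both were under 1.5-fold under a stricter gate. Acads was so too with cells or subsets weighted alike (its log2 ratio nearest to 0 was -0.33), and Acox3 with barcodes above the UMI threshold alone and at no more than 5% mitochondrial UMIs (-0.53 nearest to 0). The cDC1-gated cells of the KO library also held more of the 4 cDC2 markers, 367 CPM against 97.8 CPM in WT cells, and of the 3 macrophage subset markers, 70.7 CPM against 10.3 CPM in WT cells, with 1 of the 3 at 0 in KO cells. The part of these markers in the values of Acads, Acox3 and Crat was not tested. Hsd17b4, the peroxisomal bifunctional enzyme, ranged from a log2 ratio of -0.25 to 0.32 over 9 classes. Ehhadh, the other bifunctional enzyme, reached 50 UMIs in 3 classes and was at 1.41 CPM in KO and 1.37 CPM in WT macrophage-gated cells.

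Of the regulators and fuel choice genes, Ppara and Pdk4 were all but undetected. Pdk4, the kinase that turns cells from glucose to fatty acids, had 0 UMIs in both libraries in CD8 T-gated cells, which allows a level of up to 0.0518 CPM in KO and 0.0593 CPM in WT cells at 3 UMIs. Ppara, the nuclear receptor that drives the pathway in liver, had 0 UMIs in both libraries in monocyte-gated cells, allowing up to 0.123 CPM in KO and 0.215 CPM in WT cells. Neither reached 50 UMIs in any of the 10 classes.

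Ucp2 (ENSMUSG00000033685, chromosome 7, 100493337 to 100502020, plus strand), an inner membrane carrier linked to fatty acid use and to lower mitochondrial oxidant release, was below WT in 10 of 10 classes, and in 9 of 10 under a stricter gate. The differences were modest where the gene was abundant. Ucp2 was at 451 CPM in KO and 459 CPM in WT macrophage-gated cells with an interval that reached 1 (0.962 to 1.001), at 198 CPM in KO and 239.5 CPM in WT CD8 T-gated cells (0.827, 0.806 to 0.848), and at 357 CPM in KO and 402 CPM in WT monocyte-gated cells (0.890, 0.860 to 0.920). In cDC1-gated cells it was at 442 CPM in KO and 557 CPM in WT cells. The ratio was lowest in melanoma-gated cells, with 9.25 CPM in KO and 18.6 CPM in WT cells (0.498, 0.382 to 0.640), but these hold little of it, and free RNA was estimated to give 75.6% of the KO and 37.7% of the WT UMIs there. In melanoma-gated cells Ucp2 was the 1 of 30 members past 1.5-fold lower (9.72% of all genes), and 1 member was as much higher (6.16% of all genes).

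**Figure D4:**
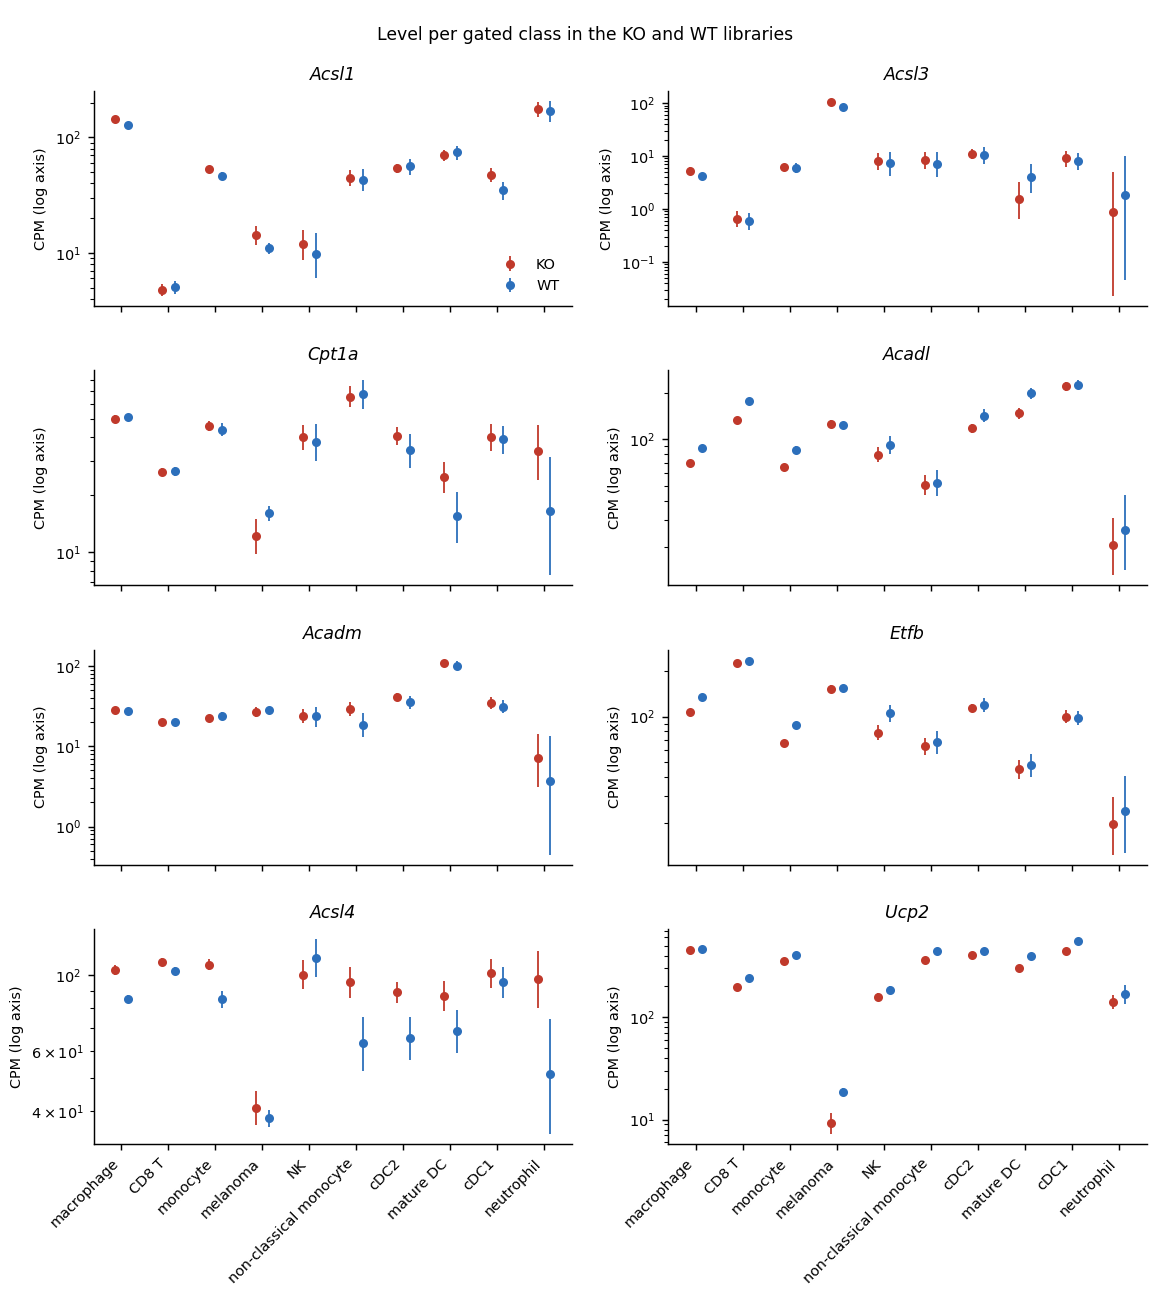
CPM (log axis) of 8 members in each gated class, KO (red) left of WT (blue), with bars for 95% Poisson intervals. The classes differ far more than the libraries for Acsl1 (175 CPM in KO and 169 CPM in WT neutrophil-gated cells, 4.76 CPM in KO and 5.04 CPM in WT CD8 T-gated cells), and Acsl3 stands out in melanoma-gated cells.

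The pathway was mixed in melanoma-gated cells. The member median was -0.048, with 17 of 30 below WT while 48.8% of all genes were. These cells had medians of only 2642 UMIs in KO and 1847 in WT cells. Above the UMI threshold were 35.3% of KO and 33.2% of WT cells, and the sums mostly describe these deep cells. Of the activation and later genes, Acsl1 (14.2 CPM in KO and 10.9 CPM in WT cells), Acsl3, Hadhb, Cpt2 (13.4 CPM in KO and 10.04 CPM in WT cells) and Etfa (148 CPM in KO and 135 CPM in WT cells) had intervals above 1. All 4 auxiliary enzymes had intervals below 1, as did Ucp2, Cpt1a (12.2 CPM in KO and 16.03 CPM in WT cells) and the thiolase gene Acaa2 (24.4 CPM in KO and 29.4 CPM in WT cells). Esrra, which encodes a nuclear receptor of mitochondrial genes, was at 26.7 CPM in KO and 14.9 CPM in WT melanoma-gated cells. It was chosen after its value was seen from the 54 other pathway genes, of which 7 of 48 measured there were past 1.5-fold higher and 5 as much lower.

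Levels of the members varied between the cell types in both libraries. Hadha, Hadhb, Eci1, Eci2, Echs1 and Acads were highest in melanoma-gated cells, for Hadha at 137 CPM in KO and 133 CPM in WT cells. Acadl was highest in cDC1-gated cells (221 CPM in KO and 227 CPM in WT), Acadm in mature DC-gated cells (109.7 CPM in KO and 100.9 CPM in WT, with cDC2-gated cells next at 41.2 CPM in KO and 35.2 CPM in WT), and Etfb and Ech1 in CD8 T-gated cells. Cpt1a was highest in non-classical monocyte-gated cells, at 65.5 CPM in KO and 67.2 CPM in WT cells. Crat led in macrophage-gated cells with 22.3 CPM in KO and 24.9 CPM in WT cells. Many neighbours in these orders had overlapping Poisson intervals, as Hadha in KO CD8 T-gated cells (77.4 to 82.1 CPM) and KO NK-gated cells (62.9 to 79.4 CPM).

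Within the large classes the lower median was found in most subsets. In macrophage-gated cells it was -0.13 in Arg1 high cells (-0.013 over all genes) and -0.19 in Arg1 low cells (0.017). It was -0.15 in Lyve1 or Cbr2 positive cells (0.066) and -0.21 in cycling cells (0.035). In each, 20 to 22 of the 28 to 30 members measured were below WT. In CD8 T-gated cells it was -0.20 in Tcf7 or Slamf6 positive cells (0.022 over all genes), -0.080 in cycling cells (0.039) and -0.074 in cells with granzymes C to F (0.089). It was -0.064 in Havcr2 positive cells (0.071) and 0.025 in the 159 KO and 82 WT cells left over (0.076). In monocyte-gated cells it was -0.11 in cells not cycling (0.056). In cycling ones it was 0.0047 (-0.0060), with 6 of 12 members below WT. The cells with granzymes C to F were 10.3% of KO and 17.2% of WT CD8 T-gated cells, and the 7 CD8 T subset markers were at 698 CPM in KO and 1041 CPM in WT cells. Macrophage-gated cells of the KO library also held more of the 4 monocyte markers (987 CPM against 588 CPM in WT cells) and less of the 6 macrophage markers (10098 CPM against 12110 CPM in WT cells) and of the 3 cycling markers (259 CPM against 418 CPM in WT cells), and the 3 erythroid markers were at 135 CPM in KO and 4.62 CPM in WT cells, with none of these at 0 in either library. The monocyte-gated cells of the KO library held less of the 3 platelet markers, 134 CPM against 466 CPM in WT cells, of the 3 cycling markers, 51.0 CPM against 133 CPM in WT cells, and of the 6 macrophage markers, 1138 CPM against 1540 CPM in WT cells. The 5 melanoma markers were lower in all 3 classes, at 66.6 CPM in KO and 155 CPM in WT macrophage-gated cells, 22.4 CPM in KO and 74.4 CPM in WT CD8 T-gated cells and 50.7 CPM in KO and 160 CPM in WT monocyte-gated cells. The part of these differences in the ratios was not tested.

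The 54 other genes of the pathway were mixed. They were below WT in 183 of 378 pairs (48.4%), with a median of 0.0069, against 61.8% for the members. In macrophage-gated cells 29 of 49 were below WT, 2 past 1.5-fold lower and 1 as much higher. The mitochondrial ones among them were below WT in 14 of 18 with a median of -0.22, near the members' -0.25, whereas 12 of the 18 regulators were above WT. In monocyte-gated cells the mitochondrial ones were below WT in 10 of 17, and in CD8 T-gated cells in 10 of 18. Pparg, the nuclear receptor of lipid uptake and storage in macrophages, was at 73.9 CPM in KO and 174 CPM in WT macrophage-gated cells (0.426, 0.407 to 0.445). Its target Angptl4, a lipase inhibitor, was at 2.45 CPM in KO and 5.16 CPM in WT cells, and Bdh1, a ketone body dehydrogenase, at 0.941 CPM in KO and 0.498 CPM in WT cells, the last from 30 KO and 35 WT UMIs.

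Pparg was also lower in KO monocyte-gated cells, at 24.4 CPM against 53.2 CPM in WT cells (0.459, 0.412 to 0.512), and there Ppargc1b, a transcriptional coactivator gene, was at 33.1 CPM in KO and 12.5 CPM in WT cells (2.65, 2.25 to 3.14). Abcd2, a peroxisomal transporter of long acyl chains, was at 13.1 CPM in KO and 8.18 CPM in WT monocyte-gated cells. The mitochondrial deacylase genes Sirt3, at 8.6 CPM in KO and 15.3 CPM in WT cells, and Sirt5, at 1.19 CPM in KO and 2.51 CPM in WT cells, were lower. In CD8 T-gated cells Pdk1, a kinase that holds back pyruvate oxidation and is known to respond to hypoxia, was at 24.3 CPM in KO and 37.9 CPM in WT cells (0.641, 0.598 to 0.687), and Pparg was at 0.760 CPM in KO and 3.22 CPM in WT cells, with 63.2% of the KO and 34.6% of the WT UMIs from free RNA.

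The TCA cycle, which takes up the acetyl-CoA, stood near the members in macrophage-gated cells, where 21 of 23 genes were below WT with a median of -0.22 and none past 1.5-fold. In monocyte-gated cells 17 of 23 were below WT (median -0.18) and in CD8 T-gated cells 13 of 23 (-0.033). Melanoma-gated cells went the other way, with 7 of 23 below WT and a median of 0.15. Whether the members differ from the TCA cycle genes was not tested.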

How the data were processed

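Single-cell RNA-seq counts of CD45+ cells from tumours of DGAT1-KO and WT B16-F10 cells were analysed, 1 library per group. The authors deposited raw UMI counts per gene and barcode, made with Cell Ranger 7.2.0 per the file headers. The genome build was mm10 per the submitters' processing notes; the annotation and filters on cells were not found in the sources used here. Depth was 202946827 UMIs in the KO and 235652476 in the WT library.

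Barcodes were called as cells above a UMI threshold (9263 in KO, 16615 in WT), or from 500 UMIs where their profile differed from that of barcodes with at most 100 UMIs (10000 simulations, false discovery rate 0.01). Cells needed 250 genes and at most 10% mitochondrial UMIs, leaving 11268 KO and 9184 WT cells. Scrublet in scanpy 1.11.5 then marked 336 KO (2.98%) and 157 WT (1.71%) as doublets, which were removed, where 9.01% of KO and 7.35% of WT cells were expected from the cell numbers. Free RNA, from C1q and melanoma genes in lymphocytes, was estimated at 2.42% of KO and 2.36% of WT UMIs. Gate thresholds on markers per 10000 UMIs were set after the marker distributions were seen.

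For each class the UMIs of its cells were added up within a library, and all genes of the table were scaled to CPM. Intervals at 95% are conditional exact ones for ratios, Poisson for levels and Clopper-Pearson for shares of cells; they treat UMIs as independent, which UMIs concentrated in few cells are not, and cover counting error alone. A count of 0 allows 3 UMIs. No test between groups was made. A stricter gate needed 2 UMIs of a class's own markers and 0 of others'. Versions were numpy 2.4.6, scipy 1.17.1 and pandas 2.3.3.

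The members, the lists and the rule for named genes were chosen with earlier results of these data known. The values of 1 member are not reported here; it enters the counts and medians over the members. In macrophage-, CD8 T- and monocyte-gated cells each member past 1.5-fold with 50 UMIs and an interval that leaves out 1 is named, with the most abundant of each role; elsewhere up to 3 in each direction are named. Other pathway genes follow the same fold, up to 3 in each direction in those 3 classes.

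On simulated data, thinned cells of 500 to 3000 UMIs were called in 48.3% of KO and 77.7% of WT draws, and cells of 4000 to 6000 UMIs in 95.3% of KO and 98.3% of WT draws, so small cells are under-represented, more so in the KO library. The ratio intervals covered 95.8% of the unchanged genes among the 13326 simulated for CD8 T-gated cells and 95.3% among the 9057 for NK-gated cells. These draws had independent counts, as the intervals assume, so this coverage cannot speak to spread between cells, tumours or libraries.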

Additional observations from a re-analysis of the deposited data

Results flagged for a closer look

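Etfdh stood out because its difference between KO and WT ran in opposite directions in 2 of the classes, each past 1.5-fold and with an interval that left out 1. Its log2 ratio was 0.80 in cDC2-gated cells and -0.73 in non-classical monocyte-gated cells, from 26 to 131 UMIs per library. The difference between the classes was not tested, since each group is 1 library.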

How the results depend on the processing

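The member median stayed below 0 under every alternative that gave a value in the large classes: -0.27 to -0.17 in macrophage-gated cells, -0.15 to -0.088 in CD8 T-gated cells, -0.30 to -0.017 in monocyte-gated cells and -0.25 to -0.10 in NK-gated cells. It crossed 0 in melanoma-gated cells (-0.13 to 0.040), non-classical monocyte-gated cells (-0.14 to 0.026), mature DC-gated cells (-0.078 to 0.044), cDC1-gated cells (-0.16 to 0.030) and neutrophil-gated cells (-0.26 to 0.16), and stayed below 0 in cDC2-gated cells (-0.14 to -0.0063). Of single ratios past 1.5-fold, that of Eci2 in monocyte-gated cells reversed, to a log2 ratio of 0.022 with subsets weighted alike, a weighting that gives the 22 KO and 31 WT cycling cells the weight of the rest.

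The number of members past 1.5-fold moved in several classes. The share of all genes past the fold under each setting is not given, so nothing is read from these counts about the members. In macrophage-gated cells it was 0, but 2 with barcodes above the UMI threshold alone and 1 each at no more than 5% mitochondrial UMIs, under the strict gate and with each cell weighted alike. In CD8 T-gated cells it was 1, but 0 with free RNA subtracted, 0 where both libraries needed 50 UMIs, and 2 with subsets weighted alike. In melanoma-gated cells it was 2, but 5 under the strict gate and 11 with each cell weighted alike. In NK-gated cells it was 2, but 4 above the UMI threshold, 5 with each cell weighted alike, 4 with free RNA subtracted, 6 centred on all genes and 1 with 50 UMIs in both libraries. In non-classical monocyte-gated cells it was 5, but 3 under the strict gate, 3 centred and 1 with 50 UMIs in both. In cDC2-gated cells it was 2, but 4 under the strict gate, 5 with each cell weighted alike and 1 with 50 UMIs in both. In mature DC-gated cells it was 1, but 4 above the threshold, 2 each under the strict gate, with cells weighted alike and centred, and 0 with 50 UMIs in both. In cDC1-gated cells it was 3, but 1 with each cell weighted alike and 1 with 50 UMIs in both. In neutrophil-gated cells it was 1, but 2 with doublets kept, 0 under the strict gate, 6 from 20 UMIs and 0 with 50 UMIs in both. The limit of 50 UMIs in both libraries takes in fewer members by construction, and that of 20 UMIs more; for the other settings the cause was not tested. A minimum of 1000 UMIs per cell moved 0 counts past 1.5 times.

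No paired analysis was possible because each group is 1 library. With 1 library per group, neither tumour-to-tumour spread nor library effects can be told apart from genotype, and the 95% intervals hold counting error only. Depth limits the small classes most.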
